A study of Homo sapiens with 4 samples.

Results

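RHOBTB1 and 8 genes of the same ligase system were followed in TU-177 cells with and without SKA3 knockdown. The 9 genes were the 3 RhoBTB genes RHOBTB1, RHOBTB2 and RHOBTB3, the scaffold gene CUL3, and 5 genes of substrate adaptors that CUL3 binds, KEAP1, KLHL9, KLHL13, KLHL21 and SPOP. They were taken by name from the 28729 genes of the expression table, and all 9 were present and measured. The set was built around RHOBTB1 because its level had one of the largest falls after SKA3 knockdown. The fall of RHOBTB1 is therefore given as a description without a test, and the values of the other 8 genes, which belong to the same comparison, are no independent evidence.

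TU-177 is an established cell line of human laryngeal squamous cell carcinoma (LSCC). There were 2 RNA-seq libraries with a negative-control shRNA (sh_NC, called NC here) and 2 with an shRNA against SKA3 (sh_SKA3, called SKA3-KD), and the cells of all 4 had been transduced with lentivirus and selected with puromycin. The labels speak of puromycin-resistant cells and give neither a clone nor the number of shRNAs. The supplementary methods describe stable SKA3 knockdown by Cas9 with guide RNA. They also describe lentiviral shRNA against specific genes in TU-177 cells, with puromycin selection, without naming SKA3 there. The labels of these libraries name an shRNA, and the label is followed here. Values are FPKM, fragment counts already divided by gene length and by library size. The number of reads behind each value was recovered from the steps between FPKM values, and the library sizes lay between 9015056 and 11966130 reads.

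Cullin-RING ligases attach ubiquitin to proteins. In the CUL3 form, the scaffold CUL3 holds the RING protein RBX1 at one end and, at the other, a BTB-domain protein that picks the substrate. Adding the small modifier NEDD8 to the cullin switches the ligase on, and the COP9 signalosome takes NEDD8 off again. The RhoBTB proteins are large and join a GTPase-like domain to BTB domains, and they bind CUL3 themselves. RHOBTB1 has been described as a candidate tumor suppressor in head and neck cancer. KLHL9, KLHL13 and KLHL21 are known for acting on the mitotic kinase Aurora B, KEAP1 for holding down the antioxidant factor NRF2, and SPOP for recurrent mutations in prostate cancer.

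The promoter sequences of the RhoBTB gene that fell, of one that did not pass the test, and of CUL3 are shown so that their starts can be compared. Each is the 250 bases before a RefSeq transcript start on GRCh38.p14, written 5′ to 3′ on the strand of the gene. The RHOBTB1 window is chr10:61001441-61001690 on the minus strand, the first of 4 start windows listed for the gene. The RHOBTB3 window is chr5:95731086-95731335 on the plus strand, and the CUL3 window is chr2:224585364-224585613 on the minus strand, the first of 2. Capitals mark GC boxes, the letters GGGCGG on either strand, with overlapping matches counted separately.
RHOBTB1: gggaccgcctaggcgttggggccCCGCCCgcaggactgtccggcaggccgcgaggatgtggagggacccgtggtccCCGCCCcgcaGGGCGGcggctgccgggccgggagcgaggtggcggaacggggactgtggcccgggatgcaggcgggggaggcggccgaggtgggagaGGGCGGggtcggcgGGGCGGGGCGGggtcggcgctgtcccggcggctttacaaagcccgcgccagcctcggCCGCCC
RHOBTB3: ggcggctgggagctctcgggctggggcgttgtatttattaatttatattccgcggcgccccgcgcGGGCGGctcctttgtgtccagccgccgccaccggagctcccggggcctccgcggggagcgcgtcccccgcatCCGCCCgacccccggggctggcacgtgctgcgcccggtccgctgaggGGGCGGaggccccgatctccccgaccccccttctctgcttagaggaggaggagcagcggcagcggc
CUL3: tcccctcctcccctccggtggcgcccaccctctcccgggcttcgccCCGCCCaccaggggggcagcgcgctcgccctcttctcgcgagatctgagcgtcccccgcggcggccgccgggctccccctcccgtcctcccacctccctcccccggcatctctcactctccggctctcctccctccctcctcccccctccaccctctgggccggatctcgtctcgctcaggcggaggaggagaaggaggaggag
The RHOBTB1 window held 7 GC boxes at 80.4% G and C, the RHOBTB3 window 3 at 73.6%, and the CUL3 window 1 at 74.8%. The other RHOBTB1 windows held 0, 1 and 0 GC boxes, and the window of KLHL21, which did not pass the test, held 7 at 79.2%. At least 1 GC box was found in 42.6% of 35116 RefSeq windows of this length, whose median G and C content was 58%. The CCAAT box, written CCAAT, was in none of these 3 windows and in 32% of all windows. The E-box CACGTG was in the RHOBTB3 window and in 6.34% of all windows. The antioxidant response element core TGACNNNGC was in none of the 3 and in 10.9% of all. Gene-level FPKM does not tell which of the 4 RHOBTB1 starts was used. Windows were found for 8 of the 9 genes, RHOBTB2 not being shown.

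To check the knockdown, SKA3 was read first. Its FPKM was 9.40 and 9.64 in the NC libraries and 3.77 and 4.12 in the SKA3-KD libraries, without overlap. Of the markers used to check the cell type, the epithelial genes SFN, KRT17 and EPCAM were detected. KRT5, KRT14 and TP63, which are defining genes of squamous epithelium, each stayed below 1 FPKM in all 4 libraries. So did KRT6A and CDH1. The 8 listed epithelial markers summed to 193 to 208 FPKM in NC and 167 to 189 in SKA3-KD. Within them KRT17 was at 45.6 and 49.1 FPKM in NC and at 29.4 and 35.7 in SKA3-KD. The 6 fibroblast markers, 3 with a mean of at least 1 FPKM, summed to 15.4 to 15.8 FPKM in NC and 8.86 to 9.56 in SKA3-KD. Most of that gap was DCN, at 8.40 and 8.36 FPKM against 2.48 and 2.35, while COL1A2 was at or near 0 throughout. PDGFRB ran the other way, at 2.88 and 2.46 FPKM in NC and 3.19 and 4.13 in SKA3-KD. Leukocyte markers (3 of 4 in the table) and endothelial markers (2 of 4) summed to at most 0.495 FPKM in any library. The part of these differences in the results below was not tested. In bulk RNA, fewer cells with a transcript and less of it per cell cannot be told apart.

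RHOBTB1 was the most abundant of the 9 genes in NC and lost most of its RNA in SKA3-KD. NC 1 held 25.9 FPKM of it, NC 2 held 24.9, SKA3-KD 1 only 6.62 and SKA3-KD 2 only 6.81. Both SKA3-KD libraries lay far below both NC libraries, and within each group the libraries lay close together. The values rested on 1500 and 1088 reads in NC and on 326 and 389 reads in SKA3-KD. The means were 25.4 ± 0.682 FPKM (SD, n = 2) and 6.71 ± 0.139 FPKM (SD, n = 2), a level 3.78-fold lower in SKA3-KD. On the scale of log2(FPKM + 1) the difference was -1.78 (standard error 0.06), which was -1.79 for SKA3-KD 1 and -1.76 for SKA3-KD 2, each against the NC mean. It ranked 3 among the falls of 11442 genes averaging 20 reads or more, between PDK4 at -1.84 and PERP at -1.77. RHOBTB1 (ENSG00000072422) lies on the minus strand of chromosome 10, from 60869438 to 61001440 in the GRCh38 annotation. None of its transcript sequence was shared with another annotated gene over 50 bases, and no annotated gene overlapped its exons.

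**Figure D1:**
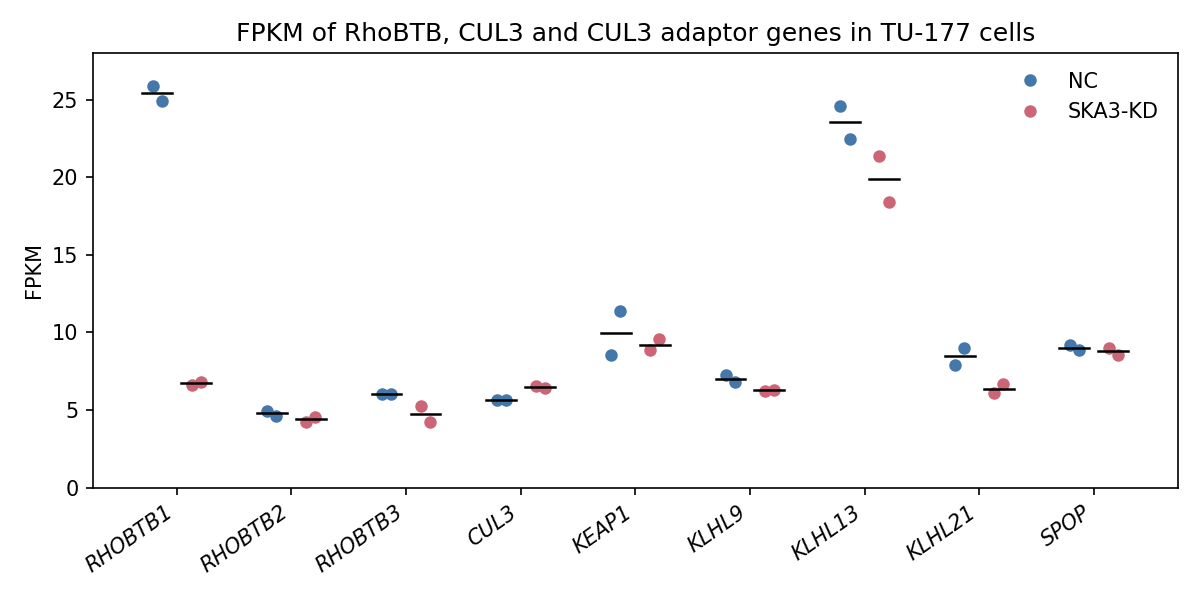
FPKM of the 9 genes (x axis) in each of the 2 NC and 2 SKA3-KD libraries, on a linear axis from 0, with points for libraries and black lines for group means. RHOBTB1 dropped from about the level of KLHL13 to that of CUL3 and KLHL21, while the other 8 genes differed by at most 0.36 in size on the log2(FPKM + 1) scale.

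RHOBTB2, known as a gene deleted in breast cancer, and RHOBTB3, whose GTPase-like domain has diverged and binds ATP, were far less abundant and had much smaller differences. RHOBTB2 stood at 4.97 and 4.60 FPKM in NC and at 4.21 and 4.59 in SKA3-KD. The 4 values were close, NC 2 and SKA3-KD 2 nearly equal. The log2 difference was -0.10 (95% interval -0.32 to 0.12, adjusted p = 0.473, limma). Other annotated genes lie on the opposite strand across part of its exons, the longest overlap covering 22.8% of the exon bases, and whether reads were counted by strand is not given in the sources used here. RHOBTB3 had 6.04 and 6.07 FPKM in NC and 5.24 and 4.26 in SKA3-KD. Its SKA3-KD libraries both lay below NC but were farther from each other than the nearer one was from NC. The log2 difference was -0.30 (95% interval -0.57 to -0.03, adjusted p = 0.128, limma), and limma voom on the recovered reads put it past the threshold of 0.05 at -0.38 (adjusted p = 0.00884, with values up to 0.394 under the other alternatives).

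With the fall of RHOBTB1 the RhoBTB transcripts had another makeup in SKA3-KD. Together the 3 genes summed to 36.9 and 35.6 FPKM in NC and to 16.1 and 15.7 in SKA3-KD. RHOBTB1 made up 70.2% and 70% of that sum in NC and 41.2% and 43.5% in SKA3-KD. The ratio of RHOBTB1 to RHOBTB2 was 5.21 and 5.42 in NC and 1.57 and 1.48 in SKA3-KD, and the ratio to RHOBTB3 was 4.29 and 4.11 in NC and 1.26 and 1.60 in SKA3-KD. RHOBTB1 thus remained the highest of the 3 in every library.

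**Figure D2:**
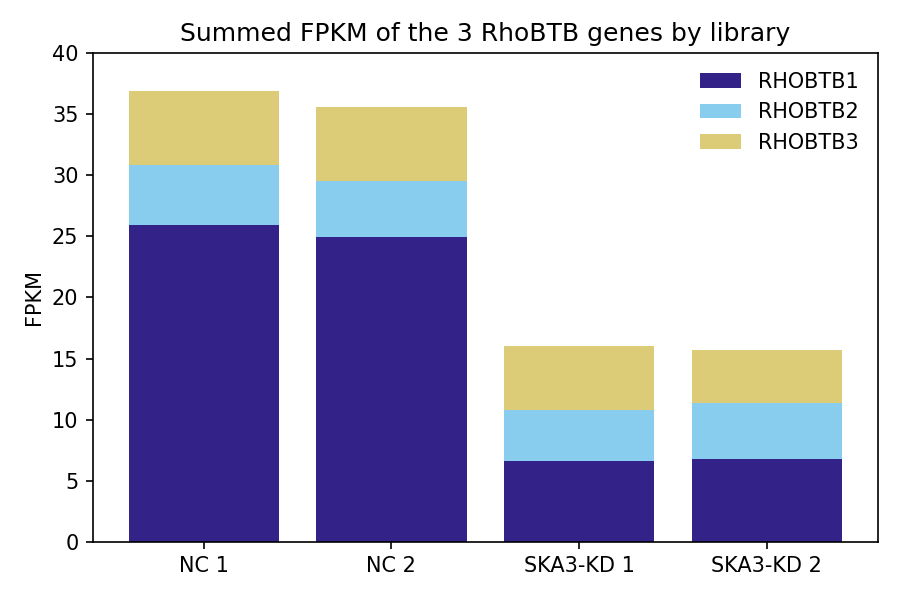
Stacked FPKM of RHOBTB1, RHOBTB2 and RHOBTB3 in each of the 4 libraries (1 bar a library, y axis from 0). The sum was 36.9 and 35.6 in NC and 16.1 and 15.7 in SKA3-KD, with most of the difference in the RHOBTB1 segment.

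CUL3, the scaffold, was the only one of the 9 genes with higher values in both SKA3-KD libraries. It had 5.63 FPKM in both NC libraries, and 6.54 and 6.44 in SKA3-KD, on 584 to 874 reads. The groups did not overlap and each was tight. The mean was 15.3% higher, a log2 difference of 0.18 (95% interval 0.0027 to 0.35, adjusted p = 0.155, limma), which did not pass the threshold and did not pass under any of the 13 alternatives (adjusted p from 0.0990 to 0.418). An annotated gene on the opposite strand overlaps 5.2% of its exon bases.

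The 3 Kelch-repeat adaptors linked to Aurora B all had lower values in SKA3-KD, and none passed the threshold. KLHL21, which acts on Aurora B at the spindle midzone, stood at 7.89 and 9.03 FPKM in NC and at 6.08 and 6.69 in SKA3-KD. All SKA3-KD values were below all NC values, and the gap between the groups was about as wide as that between the NC libraries. Its log2 difference was -0.36 (95% interval -0.59 to -0.12, adjusted p = 0.0694, limma), the largest after RHOBTB1. It passed with a mean FPKM of at least 5 (adjusted p = 0.0367), with same-numbered libraries blocked (adjusted p = 0.0433) and with limma voom (adjusted p = 0.00399), and the remaining alternatives of limma gave values up to 0.241.

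KLHL13, encoded on the X chromosome, was the second most abundant of the 9 genes in NC, with 24.6 and 22.5 FPKM against 21.4 and 18.4 in SKA3-KD. The SKA3-KD values were the lowest, and they spread more widely than the gap that separated the groups. Its log2 difference was -0.23 (95% interval -0.47 to 0.01, adjusted p = 0.169, limma), and limma voom put it past the threshold at -0.26 (adjusted p = 0.0186, up to 0.515 elsewhere). KLHL9, its close relative and partner in the same complex, was at 7.23 and 6.82 FPKM in NC and at 6.25 and 6.28 in SKA3-KD. Here the SKA3-KD values were nearly identical and lay just under NC. The log2 difference was -0.14 (95% interval -0.32 to 0.04, adjusted p = 0.234, limma). Of the 5661 stretches of 50 bases in KLHL9 transcripts, 5 were also found in KLHL13 transcripts.

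KEAP1 and SPOP overlapped between the groups. KEAP1 had 8.53 and 11.4 FPKM in NC and 8.86 and 9.58 in SKA3-KD. Both SKA3-KD values lay between the NC values, which were the farthest apart of any of the 9 genes. The log2 difference was -0.09 (95% interval -0.44 to 0.26, adjusted p = 0.704, limma) and turned to 0.10 without NC 2. SPOP had 9.17 and 8.87 FPKM in NC and 8.99 and 8.57 in SKA3-KD, all within a narrow range. Its log2 difference was -0.03 (95% interval -0.21 to 0.14, adjusted p = 0.766, limma).

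Counted over the 9 genes, 1 passed an adjusted p-value of 0.05 and it was RHOBTB1, while 12.3% of the 12645 genes tested passed, 6.11% lower and 6.16% higher. As RHOBTB1 was chosen on this comparison, nothing is read from that count, which was 0 when NC 1 or NC 2 was left out, as it was then for all genes. Of the other 8 genes, 0 passed in limma, 3 had an unadjusted p-value under 0.05 (RHOBTB3, CUL3 and KLHL21) where 31.3% of all genes tested had one, and 3 passed with limma voom, which called 25.8% of all genes. Their median log2 difference was -0.12, against 0.01 over all genes tested. Both SKA3-KD libraries lay below both NC libraries in 5 of the 8 and above in 1, where such separation held for 29.2% (below) and 32.3% (above) of all genes tested.

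The order of levels differed between the groups in the places of RHOBTB1, which moved down, and of CUL3, which moved up. In NC the order by mean FPKM was RHOBTB1, KLHL13, KEAP1, SPOP, KLHL21, KLHL9, RHOBTB3, CUL3 and RHOBTB2. KEAP1 overlapped SPOP and SPOP overlapped KLHL21, and no other neighbors overlapped over the 2 libraries. In SKA3-KD it was KLHL13, KEAP1, SPOP, RHOBTB1, CUL3, KLHL21, KLHL9, RHOBTB3 and RHOBTB2, where KEAP1 with SPOP, CUL3 with KLHL21, KLHL21 with KLHL9, and RHOBTB3 with RHOBTB2 overlapped. Among 70 BTB adaptor genes in the table, RHOBTB1 was the fourth most abundant in NC (place 4) and place 19 in SKA3-KD. KLHL13 held places 5 and 7, KEAP1 places 14 and 15, and SPOP places 17 and 16.

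Of the 5 genes whose values over the 4 libraries ran closest to RHOBTB1, 4 are given here, PERP, CIAO2B, SH3GL2 and PDK4. Closeness was the Euclidean distance between log2(FPKM + 1) profiles after subtracting each gene's mean, over 11441 other genes averaging 20 reads or more, and it reflects mainly the size of the fall. PERP, a desmosome-associated target of p53, lay at a distance of 0.13. It had 72.7 and 66.1 FPKM in NC and 20.5 and 18.6 in SKA3-KD. Then came CIAO2B, of cytosolic iron-sulfur assembly, at 0.16, SH3GL2, of endocytosis, at 0.18, and PDK4, a kinase of pyruvate dehydrogenase, at 0.21. Because they were picked for nearness to RHOBTB1, all 4 were bound to be separated between the groups. Of all genes tested, 29.2% were likewise lower in SKA3-KD without overlap.

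**Figure D3:**
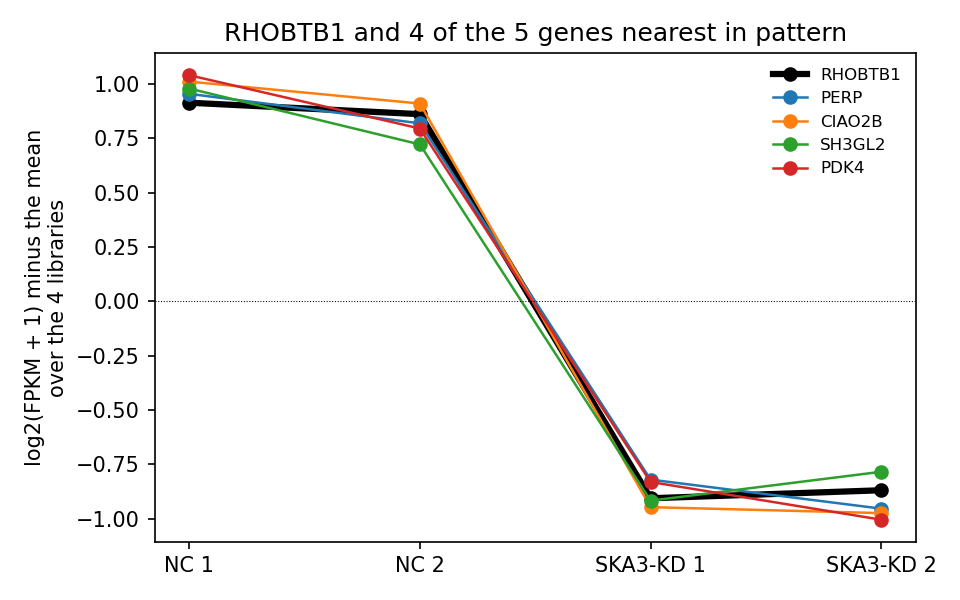
Profiles of RHOBTB1 (thick black line) and 4 of the 5 nearest genes over the 4 libraries, as log2(FPKM + 1) minus the gene's mean over the libraries (y axis). All lie above 0 in both NC libraries and below 0 in both SKA3-KD libraries, as genes picked for nearness to RHOBTB1 must.

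To see the ligase system around these genes, lists of its other components were read in the same fit. Of 21 genes of the CUL3 ligase core and the NEDD8 cycle, 19 were tested, 1 was lower and 0 were higher, or 5.26% called beside 12.3% of all genes, with a median log2 difference of 0.06. The one that fell was CAND1, which binds cullins that carry no NEDD8, with 17.1 and 16.6 FPKM in NC and 13.2 and 13.6 in SKA3-KD (log2 difference -0.31, adjusted p = 0.0388, limma). The widest difference of this list was the other way, in COPS8, a subunit of the COP9 signalosome that was singled out after its values were seen. It had 7.58 and 6.34 FPKM in NC and 10.5 and 9.47 in SKA3-KD, just short of the threshold (log2 difference 0.47, adjusted p = 0.0501, limma), and under 5 of the 13 alternatives it passed (adjusted p from 0.00158 to 0.180 over all). RBX1, the RING partner of CUL3, was listed at 0.676 and 0.718 FPKM in NC and at 0.699 and 0.768 in SKA3-KD, under the minimum for testing. These values rested on 20 to 28 reads, and whether they reflect the true level of RBX1 was not tested. Of the list genes named here as past the threshold, CDC20 alone still passed without the filter on low FPKM (adjusted p = 0.0465, limma). CAND1, KCTD10, NCOA3 and HMOX1 no longer passed without the trend (adjusted p = 0.0526 to 0.0741, limma). With 1 library left out, HMOX1 passed without SKA3-KD 2 (adjusted p = 0.0399, limma), and no other passed in any of the 4 fits. Of the 7 other cullins, all were tested, 1 was lower and 0 were higher, or 14.3% called beside 12.3% of all genes. The lower one was CUL4A, the scaffold of the DDB1 ligases, at 95.2 and 86.4 FPKM in NC and 57.3 and 53.9 in SKA3-KD (log2 difference -0.70, adjusted p = 0.0129, limma). The median of the 7 cullins was 0.17.

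Few of the other BTB adaptors passed the test. Of 68 listed, 62 were in the table and 47 were tested, of which 1 was lower, 1 was higher and 45 did not pass, or 4.26% called beside 12.3% of all genes, with a median of -0.03. IVNS1ABP, a Kelch protein first found through an influenza protein, rose from 18.3 and 17.6 FPKM in NC to 27.5 and 26.5 in SKA3-KD (log2 difference 0.56, adjusted p = 0.0138, limma). KCTD10, an adaptor of the KCTD family, fell from 7.08 and 7.67 to 5.38 and 5.38 FPKM (log2 difference -0.39, adjusted p = 0.0362, limma), a call lost without the filter and without the trend. KLHL22, the CUL3 adaptor known for acting on PLK1, falls outside the naming rule and was singled out after its values were seen because PLK1 is central to the study. It had 2.63 and 2.37 FPKM in NC and 3.29 and 3.15 in SKA3-KD, without overlap (log2 difference 0.27, adjusted p = 0.137, limma).

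**Figure D4:**
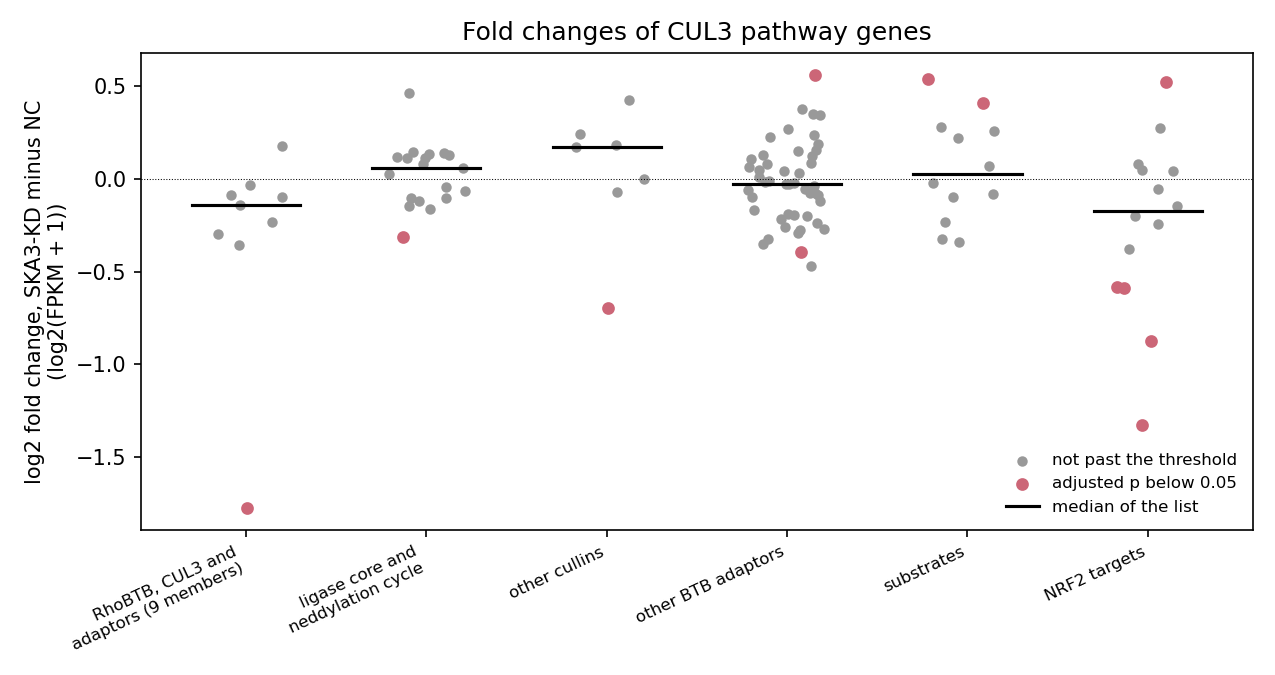
Log2 differences (SKA3-KD minus NC, on log2(FPKM + 1), y axis) of the tested genes of each list (x axis), 1 point a gene, red where adjusted p was below 0.05, with a line at the median. RHOBTB1, chosen on this value, lies at -1.78, below every other gene plotted.

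Transcripts of proteins that the 9 genes' products are known to act on were also read. Their RNA says nothing of protein stability, which was not measured in these libraries. Of 14 such genes, 12 were tested, 0 were lower and 2 higher, or 16.7% called beside 12.3% of all genes, with a median log2 difference of 0.02. CDC20, the activator of the anaphase-promoting complex, rose by 0.54 (adjusted p = 0.0114, limma). NCOA3, a steroid receptor coactivator, rose by 0.41 (adjusted p = 0.0367, limma). Both are SPOP substrates, as are most of the 14 listed genes. CDC20 had 63.7 and 62.5 FPKM in NC and 91.4 and 93.0 in SKA3-KD, and NCOA3 7.01 and 7.05 against 10.2 and 9.14. PDE5A, the phosphodiesterase that RHOBTB1 directs to degradation in smooth muscle, was low, with 0.454 and 0.284 FPKM in NC and 0.463 and 0.391 in SKA3-KD, and was not tested. LRRC41, a RhoBTB substrate, had 9.63 and 9.58 FPKM in NC and 10.0 and 10.3 in SKA3-KD (adjusted p = 0.486, limma). AURKB, the gene of Aurora B, had 26.1 and 28.3 FPKM in NC and 33.9 and 31.6 in SKA3-KD (log2 difference 0.26, adjusted p = 0.0831, limma).

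Other SPOP substrates did not pass the threshold. DAXX (0.22), BRD2 (-0.02), BRD3 (-0.08), TRIM24 (-0.09), DEK (-0.32) and GLI2 (-0.34) had these log2 differences, with adjusted p-values of 0.0571 to 0.862 in limma. GLI3 was at 0.507 and 0.492 FPKM in NC and 0.404 and 0.441 in SKA3-KD and was not tested. NFE2L2, the gene of NRF2, had 19.6 and 18.9 FPKM in NC and 16.6 and 15.9 in SKA3-KD (log2 difference -0.23, adjusted p = 0.0766, limma). Of 16 NRF2 target genes, 14 were tested, 4 were lower and 1 higher, or 35.7% called beside 12.3% of all genes, with a median of -0.17, and none passed without the filter on low FPKM (adjusted p = 0.0542 to 0.0990, limma). HMOX1 (heme oxygenase, -1.33), AKR1C1 (-0.87), ABCC2 (-0.59) and GCLC (of glutathione synthesis, -0.58) fell, and SLC7A11 (the cystine transporter, 0.52) rose, with adjusted p-values of 0.0149 to 0.0281 in limma. AKR1C1 was low, with a mean of 1.96 FPKM in NC and 0.619 in SKA3-KD, 3.17-fold lower, and voom gave it a log2 difference of -1.67. AKR1C1 also has near-identical relatives in its family, so its value is uncertain where reads were shared among them.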

How the data were processed

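Of the 4 libraries of TU-177 RNA, 2 were NC and 2 SKA3-KD, with groups and replicate numbers taken from the sample titles. Total RNA was isolated with Trizol and read on a HiSeq instrument. The authors deposited FPKM per gene, with 1 column for each library and no pooling. The submitters' processing notes name Bowtie2 2.2.8, HISAT2, StringTie 1.3.1, Cuffdiff 2.1.1 and the build hg19, without roles. Symbols, exon lengths and positions came from GENCODE 29 on GRCh38 by Ensembl identifier, which covered 27199 genes, and coordinates are of that build. Promoters came from RefSeq.

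The 12645 genes whose FPKM averaged 1 or more were compared by limma 3.58.1 in R 4.3.3, with lmFit and eBayes with a trend on log2(FPKM + 1). This scale understates changes of low genes. P-values were adjusted by Benjamini-Hochberg over all genes tested, at a threshold of 0.05. Whole reads were recovered to within 0.001 for 99.6% of the genes tested, with the GENCODE length for 61.2% and otherwise with the shortest whole length, from 0.3 of that length upward, that gave whole reads in all libraries. The remaining genes were rounded. The reads on genes made up 103% to 104% of the library sizes. They also served limma voom, an alternative.

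Named genes were the 9 members, SKA3, the 5 nearest to RHOBTB1, every substrate, and listed genes past the threshold (at most 6 a direction in each list). Of these, 1 of the 6 lists and some single genes are not reported here. The members and lists were chosen with earlier results of these data known. Libraries of a group differed by more than sampling noise (chi-square per degree of freedom 3.19 in NC and 3.18 in SKA3-KD) and were kept apart. The labels do not say whether they came from separate cultures, so p-values measure only the spread between these libraries, which may be technical. An exact permutation test was not used, as 2 libraries against 2 cannot pass the threshold. On data simulated from these libraries for the same comparison over 12558 genes, limma made 23 false calls. It recovered 63 of 94 genes changed by 1 and 87 of 93 changed by 2 on the log2 scale. In that simulation limma voom recovered 81 of 94 and 89 of 93, with 12 false calls. Python 3.11.15 was used for the other steps.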

Additional observations from a re-analysis of the deposited data

How the results depend on the processing

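With all 4 libraries, the 9 log2 differences kept their direction under each alternative that tested them, RHOBTB2 not being tested with a mean FPKM of at least 5. RHOBTB1 moved to -1.90 with a pseudocount of 0.1 and to -1.93 with limma voom on the recovered reads, and lay between -1.80 and -1.75 when 1 library was left out. KEAP1 turned from -0.09 to 0.10 without NC 2 and was -0.27 without NC 1, short of the threshold in all. Members lower past the threshold, RHOBTB1 included, numbered 1 in limma, 2 with a mean FPKM of at least 5, 2 with the replicate block and 4 with voom. Over all genes tested, 6.11% were lower in limma and 13.2% with voom. With a mean FPKM of at least 5, 887 of 7303 genes were lower, and with the replicate block 965 of 12645. As RHOBTB1 was chosen on this comparison, nothing is read from the member counts. Without NC 1 or NC 2 no gene passed in limma, although 1493 lower and 1646 higher, or 1577 and 1811, had an unadjusted p-value under 0.05, and 3 or 1 of the members did. The lone NC library is then assumed to vary like the SKA3-KD pair.

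Over the 6 lists, 8 of the 114 genes tested were lower and 4 higher, beside 6.11% lower and 6.16% higher of all genes. The lower count was 0 without the filter on low FPKM, 5 without the trend and 18 with voom. Without the filter, 36 listed genes of more than 114 then tested had an unadjusted p-value under 0.05 in limma. Of all genes, 18% did. The higher count was 1 without the filter, 10 with a mean FPKM of at least 5, 7 with robust eBayes, 9 with the replicate block and 14 with voom. Among all genes, 993 of 7303 were higher with a mean FPKM of at least 5, and 909 of 12645 with robust eBayes. Over all genes, 772 were lower and 779 higher. These counts were 81 and 48 without the filter, 381 and 312 without the trend, 1668 and 1598 with voom, 965 and 1002 with the replicate block, and 0 to 135 and 0 to 46 with 1 library left out. Same-numbered libraries deviated together with a correlation of 0.10 over genes, so the numbers are not taken to pair cultures. With a pseudocount of 0.1, 3 of the 5 genes nearest to RHOBTB1 were shared, CIAO2B and PERP among them, and TSPAN18 and DCN came in. Median-of-ratios scaling and quantile normalization moved the median of all genes by under 0.1 on the log2 scale. With 2 libraries a group, small differences of members such as CUL3 and KLHL9 could not be resolved.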
